A study of Mus musculus with 12 samples.

Results

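The 40 collagen chain genes described here were taken from the 54532 genes of a mouse limb RNA-seq table. They were chosen by listed gene symbol and matched to the Ensembl IDs of the table, and each symbol matched a single ID. By the structure of the collagens they encode, 11 are fibrillar, 9 network-forming, 9 FACIT (fibril-associated collagens with interrupted triple helices), 3 beaded-filament and 4 transmembrane. The other 4 are *Col7a1*, *Col15a1*, *Col18a1* and *Col26a1*. The libraries were polyA RNA from sorted limb cells of mouse embryos at E14.5. In iCreb5 embryos, Prrx1-Cre switched on a conditional allele at Rosa26 that carries bovine *Creb5* with an HA tag, followed by an internal ribosome entry site and GFP. In tdTomato embryos, the same Cre switched on the red fluorescent protein tdTomato from a conditional Rosa26 allele. Both groups therefore carried the Cre, and their mothers carried both conditional alleles. *Creb5* is a transcription factor of the CREB/ATF family, and Prrx1-Cre acts in limb bud mesenchyme, so cells that do not descend from it were not meant to be labelled. Each group had 6 libraries from 4 labelled litters, with 3 libraries per group in litter 3 and 1 per group in each of litters 4, 5 and 6. The study's design text speaks of 6 litters, and the litter given in each library's own label was used here. The sources used here do not say whether a library was 1 embryo or several, and a p-value covers only the spread among the 12 libraries.

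Collagens are secreted as intertwined chains and assemble outside the cell. In cartilage, fibrils of collagen II and collagen XI carry collagen IX on their surface, and collagen X is laid down by hypertrophic chondrocytes. Bone, tendon and loose connective tissue are built mainly of fibrils of collagens I, III and V, while collagen IV forms the sheet of basement membranes and collagen VI forms beaded filaments close to cells. The limb at this stage holds cartilage templates, joint-forming regions, tendon precursors and loose mesenchyme side by side.

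Recovered depth was 9.02 to 53.3 M reads (M for 1000000) per library. Values are normalised counts, that is, reads divided by a size factor per library. *Creb5* itself averaged 2799 ± 214 in iCreb5 libraries and 1803 ± 299 in tdTomato libraries (SD, n = 6 each), with groups that did not overlap. The sources used here do not say how reads of the bovine transgene were counted. Genes are said to fall or rise where limma gave a Benjamini-Hochberg adjusted p under 0.05. Of all 16733 tested genes, 2.85% fell and 3.87% rose. Chondrocyte markers summed to 31753 to 47449 in iCreb5 libraries and 97105 to 147439 in tdTomato libraries, and 12 of 13 fell. Leukocyte markers summed to 2612 to 11785 in iCreb5 libraries and 642 to 1187 in tdTomato libraries, and 13 of 13 rose. Of the endothelial markers, 6 of 10 rose, with sums of 2304 to 5113 in iCreb5 libraries and 1558 to 2238 in tdTomato libraries. Limb mesenchyme markers summed to 16588 to 21666 in iCreb5 libraries and 15920 to 22003 in tdTomato libraries, and 1 of 6 rose. No marker of these lists was at 0 in every library, and the part of leukocytes and vessels in the collagen values was not tested.

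Chains of cartilage fibrils were lower in iCreb5 cells, while the chains of collagens I, III, IV and V did not pass the test. Of the 40 collagen genes, 10 fell and 0 rose, against 2.85% of all 16733 tested genes that fell and 3.87% that rose (limma on log2(normalised count + 1), Benjamini-Hochberg adjusted p under 0.05). At an unadjusted p under 0.05, 15 collagen genes were lower and 1 was higher, and edgeR and DESeq2 also called 0 higher. On recovered reads, edgeR called 10 collagen genes lower, against 2.81% of all tested genes, and DESeq2 called 11 lower, against 4.27%. All 40 genes passed the filter on low values. The median log2 change over the 40 genes was -0.40, against 0.004 over all tested genes. In 7 of the 40, all of them among the 10 that fell, every iCreb5 library lay below every tdTomato library, against 1.92% of all tested genes. Those that fell were 5 of 11 fibrillar genes (*Col2a1*, *Col11a1*, *Col11a2*, *Col24a1* and *Col27a1*), 4 of 9 FACIT genes (*Col9a1*, *Col9a2*, *Col9a3* and *Col16a1*) and *Col15a1*. None of the 9 network, 3 beaded-filament and 4 transmembrane genes passed. At an unadjusted p under 0.05, the network genes had 2 lower (edgeR and DESeq2 called 0), the beaded genes had 2 lower (edgeR and DESeq2 called 0), and the transmembrane genes had 1 higher and 1 lower (edgeR called 0 and DESeq2 called 1 lower). The median log2 change was -0.39 for the fibrillar genes, -0.48 for the FACIT genes, -0.41 for the beaded genes and -0.04 for the network genes. In sorted bulk cells, fewer cells of a type and less RNA per cell cannot be told apart.

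**Figure D1:**
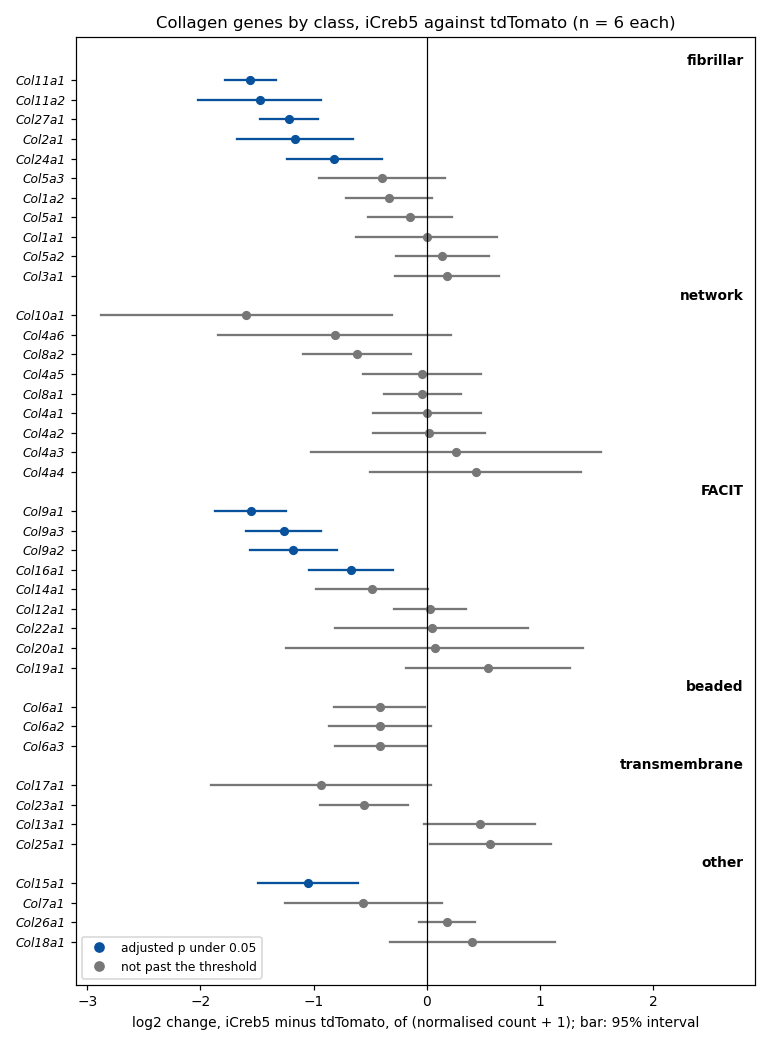
Log2 change, iCreb5 minus tdTomato, of each of the 40 collagen genes by class, with 95% intervals from limma over 6 libraries per group. The 10 genes past the threshold all lie left of 0 and belong to the fibrillar, FACIT and other classes.

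Collagen II and its partner collagen XI make up the core of cartilage fibrils. In the values that follow, the 3 numbers of a group are its lowest, median and highest normalised counts over 6 libraries. *Col11a1*, the alpha1 chain of collagen XI (chr3:114030540-114220718 in GENCODE M21, mm10, plus strand), had 4918, 6134 and 6905 in iCreb5 libraries, against 15173, 17883 and 19937 in tdTomato libraries. The groups did not overlap, and the highest iCreb5 library was well below the lowest tdTomato library. The log2 change was -1.56 ± 0.11 (SE), with an adjusted p of 3.44e-07, and the level was 2.95-fold higher in tdTomato. *Col11a2* (chr17:34039437-34066685), the alpha2 chain of the same collagen, had 2108, 3284 and 5048 in iCreb5 libraries, against 4551, 10558 and 14599 in tdTomato libraries. It overlapped through 1 tdTomato library at 4551 that was below the highest iCreb5 library. Its log2 change was -1.48 ± 0.25 (SE), with an adjusted p of 0.00159. *Col2a1*, the main collagen of cartilage, had 39829, 62038 and 69386 in iCreb5 libraries, against 63279, 157184 and 207763 in tdTomato libraries. The lowest tdTomato library, litter 5, lay within the iCreb5 range, and the other 5 lay above it. *Col2a1* fell by 1.17 on the log2 scale, with an adjusted p of 0.00666. The other genes that fell lie at chr15:97975602-98004695 (*Col2a1*), chr1:24177610-24252684 (*Col9a1*), chr4:121039385-121055322 (*Col9a2*), chr2:180597790-180622189 (*Col9a3*), chr4:47208161-47313167 (*Col15a1*), chr4:130047840-130099283 (*Col16a1*), chr3:145292472-145552011 (*Col24a1*) and chr4:63214004-63334991 (*Col27a1*) in the same annotation.

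The remaining fibrillar genes that fell are the minor chains of collagens XXVII and XXIV. *Col27a1*, which is found in growing cartilage, had 627, 824 and 934 in iCreb5 libraries, against 1577, 1889 and 2087 in tdTomato libraries. The groups did not overlap, and the log2 change was -1.22 ± 0.12 (SE) with an adjusted p of 1.47e-05. *Col24a1*, whose chain is known from developing bone, had 150.5, 194 and 265 in iCreb5 libraries, against 285, 317 and 531 in tdTomato libraries. Every iCreb5 library was below every tdTomato library, with a log2 change of -0.82 ± 0.20 (SE) and an adjusted p of 0.0176. Within litter 3 alone, *Col24a1* (adjusted p = 0.179) and *Col11a2* (adjusted p = 0.0993) did not pass.

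The proximal promoters of 3 fibrillar genes that fell are printed here because *Creb5* belongs to a family known for binding the cAMP response element, TGACGTCA, or its 5-base part TGACG. Each window spans 250 bases before to 50 bases after a RefSeq start site on GRCm38.p6, plus strand, at chr3:114030290-114030589 for *Col11a1*, chr17:34038888-34039187 for *Col11a2* and chr3:145292222-145292521 for *Col24a1*. Capitals mark TGACG, TGACGTCA and CCAAT (the CCAAT box) on either strand.
Col11a1: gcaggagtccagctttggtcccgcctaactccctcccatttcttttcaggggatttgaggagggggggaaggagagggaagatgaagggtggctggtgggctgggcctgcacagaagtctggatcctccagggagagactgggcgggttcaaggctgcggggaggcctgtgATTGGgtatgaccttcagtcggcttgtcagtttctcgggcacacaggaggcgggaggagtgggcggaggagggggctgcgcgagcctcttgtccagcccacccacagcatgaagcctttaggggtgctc
Col11a2: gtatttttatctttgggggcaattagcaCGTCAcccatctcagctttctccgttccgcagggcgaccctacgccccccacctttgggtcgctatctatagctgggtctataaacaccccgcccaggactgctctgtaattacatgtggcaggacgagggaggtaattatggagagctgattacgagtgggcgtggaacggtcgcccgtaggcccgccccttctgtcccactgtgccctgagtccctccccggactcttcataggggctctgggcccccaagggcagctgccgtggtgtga
Col24a1: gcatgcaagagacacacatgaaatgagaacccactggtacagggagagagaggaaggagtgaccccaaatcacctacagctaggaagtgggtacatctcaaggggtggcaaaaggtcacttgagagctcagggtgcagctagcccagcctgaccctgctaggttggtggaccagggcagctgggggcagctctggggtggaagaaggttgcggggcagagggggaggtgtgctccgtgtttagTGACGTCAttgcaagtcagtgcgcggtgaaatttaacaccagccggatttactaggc
The *Col24a1* window held TGACGTCA, with its first base 7 bases before the start site. TGACGTCA was present in 1.79% of all 32851 RefSeq windows of that length, and among the 31 collagen genes with a window it was present in *Col24a1*. TGACG, which overlaps TGACGTCA, was present in 20.8% of all windows and in 4 of the 31 collagen genes, namely *Col11a2*, *Col24a1*, *Col4a5* and *Col7a1*. Of the 8 genes that fell and had a window, 2 held TGACG, and the windows of both are printed here. The *Col11a1* window held CCAAT on the minus strand and no TGACG. The AP-1 motif TGANTCA stood in 7.81% of all windows and in *Col6a1*, and the SOX core ACAATG in 12.6% of all windows and in 0 of 31. These matches describe the letters of the windows and show no binding.

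The remaining fibrillar chains, those of bone, tendon and soft tissue, did not pass the test. *Col3a1*, the chain of collagen III in soft connective tissue, had 124156, 207316 and 314782 in iCreb5 libraries, against 127137, 204986 and 238929 in tdTomato libraries. The ranges overlapped, with iCreb5 3a and 3c, at 287393 and 314782, above every tdTomato library. The 95% interval of the log2 change was -0.28 to 0.63. The change was 0.45 in litter 3 and -0.10 in litters 4 to 6. *Col1a1*, the alpha1 chain of collagen I in bone and tendon, had 94933, 172939.9 and 230316 in iCreb5 libraries, against 72390.1, 190608 and 286965 in tdTomato libraries. Its iCreb5 range lay inside its tdTomato range, and the 95% interval of its log2 change was -0.63 to 0.62. *Col1a2*, the alpha2 chain, had 75029, 92222 and 133230.3 in iCreb5 libraries, against 94237, 116273 and 165056 in tdTomato libraries. Its log2 change was -0.33 ± 0.18 (SE), with an adjusted p of 0.353. Collagen V initiates collagen I fibrils and limits their width, and the log2 changes of its chains were -0.15 ± 0.18 (SE) for *Col5a1*, 0.14 ± 0.19 (SE) for *Col5a2* and -0.39 ± 0.26 (SE) for *Col5a3*. The groups overlapped for all 3, and *Col5a1* had 12896, 18661 and 26379.7 in iCreb5 libraries, against 15243, 20906 and 27620.2 in tdTomato libraries. Osteoblasts also make collagen I, and 7 of their 10 markers fell (8 were tested), with sums of 3418 to 14797 in iCreb5 libraries and 8754 to 43373 in tdTomato libraries. Of the tendon markers, 1 of 6 rose, with sums of 26453 to 42419 in iCreb5 libraries and 23035 to 32661 in tdTomato libraries. Among all tested genes, 2.85% fell and 3.87% rose. The part of these cells in the levels of collagens I, III and V was not tested.

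**Figure D2:**
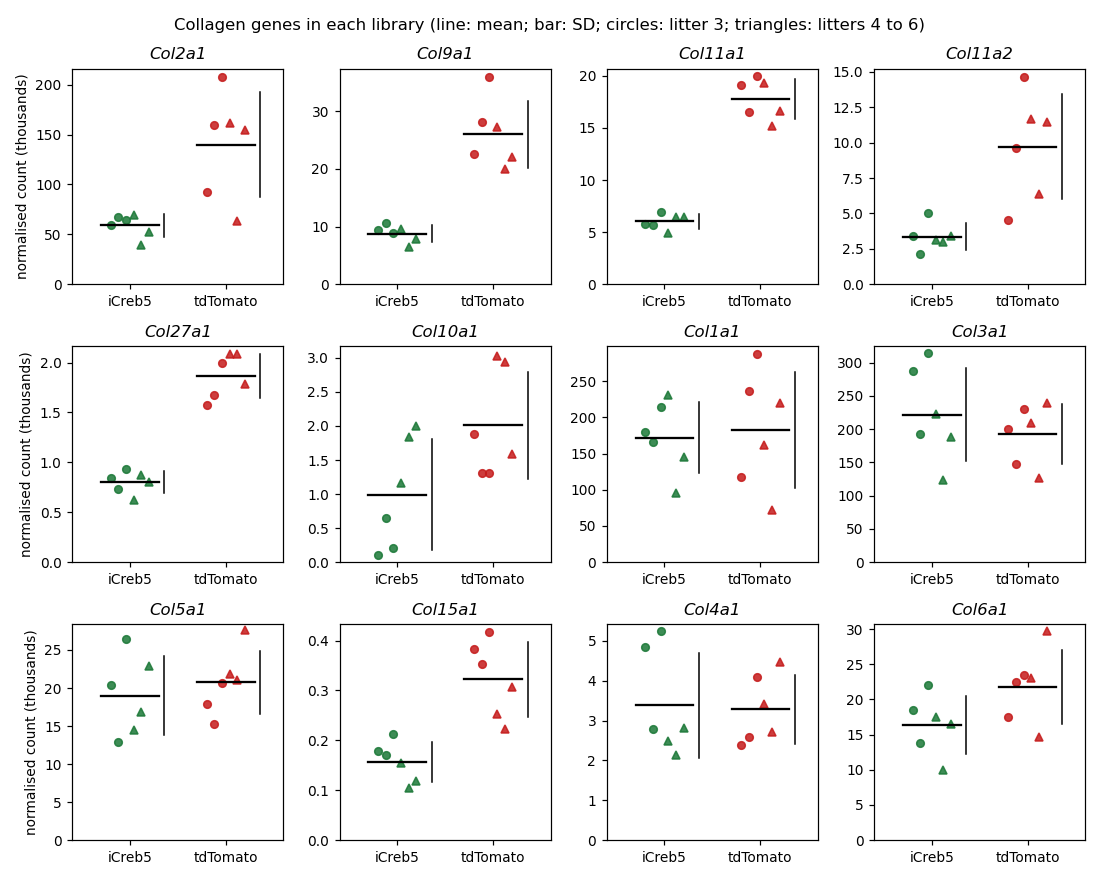
Normalised counts (axes in units of 1000) of 12 collagen genes in each of 6 iCreb5 and 6 tdTomato libraries, with the mean as a line and the SD as a bar; circles are litter 3 and triangles litters 4 to 6. The groups separate for *Col9a1*, *Col11a1*, *Col27a1* and *Col15a1* and overlap for *Col1a1*, *Col3a1*, *Col5a1*, *Col4a1* and *Col6a1*.

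FACIT collagens sit on fibrils rather than forming them, and the 3 chains of collagen IX, the one on cartilage fibrils, fell together. *Col9a1* had 6504, 9139.8 and 10570.4 in iCreb5 libraries, against 20039.6, 24934 and 35926 in tdTomato libraries. No library of one group reached the range of the other. The log2 change was -1.55 ± 0.15 (SE), with an adjusted p of 8.59e-06, and the level was 2.94-fold higher in tdTomato. *Col9a2* had 7509, 9186 and 10080.2 in iCreb5 libraries, against 13073, 22062 and 30138 in tdTomato libraries, with a log2 change of -1.18 ± 0.18 (SE) and an adjusted p of 0.000610. *Col9a3* had 17369, 20020.1 and 25596 in iCreb5 libraries, against 33838, 53912 and 67236 in tdTomato libraries, with a log2 change of -1.26 ± 0.16 (SE) and an adjusted p of 9.38e-05. Both separated the groups. *Col16a1*, a FACIT of many connective tissues, had 2818, 3678 and 6254 in iCreb5 libraries, against 4718, 6460.2 and 7525 in tdTomato libraries. Its groups overlapped, and its log2 change was -0.67 ± 0.18 (SE), with an adjusted p of 0.0294. This call held in 13 of 25 alternative settings and was lost, for example, with equal library totals, without the filter on low values and without any of iCreb5 3b, 4a, 5 or 6 or tdTomato 3c, 4a or 6d, with adjusted p of up to 0.0749 among single libraries left out and 0.457 in litter 3 alone.

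The other FACIT genes did not pass. *Col12a1*, which is found in tendon and other dense tissue, had 5027, 6646 and 8522 in iCreb5 libraries, against 5385, 6014 and 8988 in tdTomato libraries, and the interval of its log2 change was -0.29 to 0.35. *Col14a1*, the related chain of skin and tendon, had 1155, 1908 and 3796 in iCreb5 libraries, against 2144, 2884 and 3713 in tdTomato libraries, with a log2 change of -0.48 ± 0.23 (SE) and an adjusted p of 0.290. Groups of both genes overlapped. *Col22a1*, a chain of the muscle and tendon junction, had 65.5, 193 and 398 in iCreb5 libraries, against 72.6, 168 and 347 in tdTomato libraries, and the 2 ranges were nearly the same. *Col19a1* and *Col20a1* were weak, with medians of 50.8 and 11.1 in iCreb5 libraries and 34.1 and 7.87 in tdTomato libraries. A value of 3 reads lay between 1.48 and 8.38 depending on the library, so a difference in *Col20a1* was hardly detectable at this depth.

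Over the 8 chains of collagens II, IX, X, XI and XXVII, a grouping made with the values known, 7 fell and the median log2 change was -1.37. Over the 6 chains of collagens I, III and V, 0 passed in limma, 0 had an unadjusted p under 0.05, edgeR and DESeq2 called 0, and the median was -0.08. Within litters 4 to 6, 0 of these chains passed and 3 were lower at an unadjusted p under 0.05 (limma). With litter 3 averaged and litter as a block, 0 passed and 2 were lower at that level. The 8 cartilage chains summed to 108752 ± 14143 in iCreb5 libraries and 269336 ± 79969 in tdTomato libraries (SD, n = 6 each), without overlap. Chondrocyte markers moved with them, at a median log2 change of -1.67 over 13 genes. *Sox9*, the factor that drives collagen II in chondrocytes, averaged 5614 ± 785 in iCreb5 libraries and 9805 ± 2262 in tdTomato libraries, and *Acan*, the cartilage proteoglycan aggrecan, averaged 2129.9 ± 276 in iCreb5 libraries and 6577 ± 1326 in tdTomato libraries. The log2 ratio of the summed cartilage chains to the summed chondrocyte markers was 1.44 ± 0.37 in iCreb5 libraries and 1.14 ± 0.37 in tdTomato libraries, and the groups overlapped. The log2 ratio of *Col2a1* to *Sox9* differed in the other direction, at 3.38 ± 0.29 in iCreb5 libraries and 3.76 ± 0.50 in tdTomato libraries, and also overlapped. The part of these markers in the falls of the collagen chains was not tested.

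Over all 12 libraries, network collagens gave no call in limma without a litter term, and 2 of them, *Col10a1* and *Col8a2*, were called lower with litter as a block. *Col10a1*, the collagen of hypertrophic cartilage, had 99.5, 905 and 2001 in iCreb5 libraries, against 1303, 1739.7 and 3021 in tdTomato libraries. The 4 iCreb5 libraries of litters 3 and 4 were below every tdTomato library, and those of litters 5 and 6 lay within the tdTomato range. Its log2 change was -1.60 ± 0.61 (SE), with an adjusted p of 0.153. With litter as a block, the log2 change was the same and the adjusted p was 0.0438. Averaging the litter 3 libraries of each group before the block lost the call again (log2 change -0.99, adjusted p = 0.120). In litter 3 alone the log2 change was -2.62 (adjusted p = 0.0287), and in litters 4 to 6 it was -0.57 (adjusted p = 0.269). Without iCreb5 5 and 6 it was -2.41 (adjusted p = 0.0125). The difference between the litter sets had an adjusted p of 0.506. Hypertrophic markers fell in 6 of 7 genes, against 2.85% of all tested genes. Their sums were 8831 to 21943 in iCreb5 libraries and 16442 to 50881 in tdTomato libraries. The part of these markers in the *Col10a1* values was not tested. This list and the osteoblast list share *Alpl*, *Ibsp* and *Runx2*, so their counts and sums are not independent.

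Collagen VIII forms hexagonal nets under endothelium and in other connective tissue. *Col8a2* had 3739.7, 7606 and 9768 in iCreb5 libraries, against 7439.5, 10321 and 17542 in tdTomato libraries. The groups overlapped, with a log2 change of -0.62 ± 0.23 (SE), an adjusted p of 0.136, and an adjusted p of 0.0379 with litter as a block. With the litter 3 libraries of each group averaged before the block, *Col8a2* passed as well (limma, adjusted p = 0.00583). Its partner *Col8a1* had 1653, 2093 and 2953 in iCreb5 libraries, against 1561, 2219 and 2852 in tdTomato libraries, and the interval of its log2 change was -0.38 to 0.30.

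Collagen IV makes up basement membranes, and its widespread chains come from a pair of genes that share a promoter region. *Col4a1* had 2138, 2789.5 and 5251 in iCreb5 libraries, against 2382, 3059 and 4481 in tdTomato libraries, and *Col4a2* had 1602, 2232 and 4406 in iCreb5 libraries, against 1695, 2386 and 3237 in tdTomato libraries. Ranges overlapped for both, with 95% intervals of -0.48 to 0.48 for *Col4a1* and -0.47 to 0.52 for *Col4a2*. Of the iCreb5 libraries, 2 of litter 3 had the highest *Col4a1* values of all 12. Endothelial cells also make collagen IV, and the sums of their markers are given above. Their part in these values was not tested. *Col4a5* had 223, 268 and 529 in iCreb5 libraries, against 230.3, 325 and 444 in tdTomato libraries, with overlap. *Col4a3*, *Col4a4* and *Col4a6*, chains of specialised membranes such as that of the kidney filter, had medians of 13.1, 13.3 and 15.7 in iCreb5 libraries and 9.37, 11.2 and 24.0 in tdTomato libraries, near the detection limit of the shallow libraries.

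The promoters of *Col4a1* (minus strand) and *Col4a2* (plus strand) are printed because their RefSeq windows, at chr8:11312777-11313076 and chr8:11312555-11312854, overlap head to head. Both are on GRCm38.p6, and capitals mark CCAAT on either strand.
Col4a1: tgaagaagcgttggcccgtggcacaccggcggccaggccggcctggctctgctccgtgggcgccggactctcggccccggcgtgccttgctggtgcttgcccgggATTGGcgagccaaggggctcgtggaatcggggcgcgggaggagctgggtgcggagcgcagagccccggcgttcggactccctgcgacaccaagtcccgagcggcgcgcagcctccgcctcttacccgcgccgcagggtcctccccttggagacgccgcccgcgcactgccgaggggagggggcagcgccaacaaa
Col4a2: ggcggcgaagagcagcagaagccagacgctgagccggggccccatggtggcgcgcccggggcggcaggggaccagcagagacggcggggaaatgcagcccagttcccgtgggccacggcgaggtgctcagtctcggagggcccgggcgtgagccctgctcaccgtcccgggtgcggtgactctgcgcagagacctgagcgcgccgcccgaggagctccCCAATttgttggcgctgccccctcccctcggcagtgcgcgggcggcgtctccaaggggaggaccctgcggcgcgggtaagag
CCAAT was present in 37.4% of all windows and in 12 of the 31 collagen genes with one. Neither of these windows held TGACG or TGANTCA. The median GC content was 60.35% for the 8 genes that fell and had a window, from 47.3 to 74.3%, and 60.3% for the 23 that did not pass and had one. The median of all windows was 52.7%.

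The beaded filament collagen VI surrounds mesenchymal cells, and its chains had like log2 changes of -0.42 ± 0.19 (SE) for *Col6a1*, -0.41 ± 0.21 (SE) for *Col6a2* and -0.41 ± 0.19 (SE) for *Col6a3*. *Col6a1* had 10016, 16977 and 22041 in iCreb5 libraries, against 14596, 22723 and 29684 in tdTomato libraries. Adjusted p was 0.249, 0.325 and 0.259, and the groups overlapped for each chain. Within litters 4 to 6 all 3 chains passed, and within litter 3 none did. With litter 3 averaged and litter as a block, *Col6a1* and *Col6a2* passed (limma, adjusted p = 0.0393 and 0.0492) and *Col6a3* did not (adjusted p = 0.0593).

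Transmembrane collagens are anchored in the cell surface and can be shed. *Col23a1* had 968, 1303 and 1989 in iCreb5 libraries, against 1457, 1886 and 2786 in tdTomato libraries, with a log2 change of -0.56 ± 0.18 (SE) and an adjusted p of 0.0882. It passed with litter 3 averaged and litter as a block (limma, adjusted p = 0.0264). *Col13a1*, found at cell and matrix contacts, had 223, 353 and 382 in iCreb5 libraries, against 140.0, 236 and 418 in tdTomato libraries, and *Col25a1*, which muscle needs for its nerve supply, had 502, 644 and 1282 in iCreb5 libraries, against 290.1, 549 and 652 in tdTomato libraries. Their groups overlapped, with adjusted p of 0.301 for *Col13a1* and 0.246 for *Col25a1*. *Col17a1*, which joins epidermal cells to their basement membrane, had 21.8, 48.5 and 81.9 in iCreb5 libraries, against 33.5, 108 and 233 in tdTomato libraries. Its log2 change was -0.94 ± 0.46 (SE), with an adjusted p of 0.294. Of the epidermal markers, 0 of 10 passed in limma, edgeR or DESeq2 and 0 had an unadjusted p under 0.05, with sums of 1090 to 1597 in iCreb5 libraries and 1322 to 1816 in tdTomato libraries.

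Of the last 4 genes, *Col15a1* fell. It encodes a collagen at the edge of basement membranes whose end fragment resembles endostatin, and it had 104, 162 and 212 in iCreb5 libraries, against 224, 331 and 417 in tdTomato libraries. All iCreb5 libraries were below all tdTomato libraries, with a log2 change of -1.05 ± 0.21 (SE), an adjusted p of 0.00483 and a level 2.07-fold higher in tdTomato. Its relative *Col18a1*, the source of endostatin in vessel and epithelial basement membranes, had 416, 774 and 1454 in iCreb5 libraries, against 324, 593 and 1203 in tdTomato libraries, and the interval of its log2 change was -0.33 to 1.13. *Pecam1*, from the list of endothelial markers of which 6 of 10 rose, averaged 409 ± 162 in iCreb5 libraries and 114 ± 42.3 in tdTomato libraries. Its part in both genes was not tested. *Col7a1*, the anchoring fibril of skin, had 164, 273 and 502 in iCreb5 libraries, against 166, 496 and 697 in tdTomato libraries, with an adjusted p of 0.404. *Col26a1*, a collagen with an EMI domain, had 4886, 6222 and 7720.1 in iCreb5 libraries, against 4609.5, 5749 and 6283 in tdTomato libraries, with an adjusted p of 0.477. Groups overlapped for *Col18a1*, *Col7a1* and *Col26a1*.

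Levels between genes are compared per kb of coding length. The longest coding length was 1320 bases against a longest transcript of 2781 for *Col26a1*, and 9852 against 10106 for *Col6a3*. Reads of untranslated ends, where counted, thus raise the values per kb unevenly between genes. *Col3a1* had the highest mean in both groups, at 50446 ± 15927 in iCreb5 libraries and 43765 ± 10298 in tdTomato libraries (SD, n = 6 each). *Col1a1* followed at 39414 ± 11209 in iCreb5 libraries and 41869 ± 18333 in tdTomato libraries. The order of these genes differed between libraries, with *Col1a1* above *Col3a1* in iCreb5 4a and in tdTomato 3b and 3c, so it is not resolved. *Col1a2* stood at 23455 ± 5644 in iCreb5 libraries and 29578 ± 7364 in tdTomato libraries, *Col2a1* at 13220.0 ± 2503 in iCreb5 libraries and 31354 ± 11769 in tdTomato libraries and *Col9a3* at 10164 ± 1456 in iCreb5 libraries and 24858 ± 5996 in tdTomato libraries. *Col2a1* was below *Col1a2* in the mean of iCreb5 libraries, and in tdTomato libraries their order is not resolved. The 40 genes together held 2.84 ± 0.666% in iCreb5 libraries and 3.43 ± 0.918% in tdTomato libraries of all normalised counts, with overlap.

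Fibrillar genes held 76.2 ± 2.15% in iCreb5 libraries and 67.8 ± 3.20% in tdTomato libraries of the collagen sum per kb, and the groups did not overlap. FACIT genes held 11.5 ± 2.11% in iCreb5 libraries and 20.5 ± 2.45% in tdTomato libraries, again without overlap. The other classes overlapped: network genes held 3.49 ± 0.257% in iCreb5 libraries and 3.71 ± 0.634% in tdTomato libraries, and beaded genes held 5.14 ± 0.430% in iCreb5 libraries and 5.26 ± 0.649% in tdTomato libraries. Transmembrane genes held 0.805 ± 0.0812% in iCreb5 libraries and 0.750 ± 0.184% in tdTomato libraries, and the last 4 genes held 2.89 ± 0.229% in iCreb5 libraries and 2.02 ± 0.504% in tdTomato libraries. Among single genes, *Col3a1* held 27.9 ± 3.13% in iCreb5 libraries and 19.1 ± 3.53% in tdTomato libraries, with slight overlap, and *Col2a1* held 7.56 ± 1.13% in iCreb5 libraries and 13.0 ± 2.38% in tdTomato libraries, without overlap. Of the FACIT genes, *Col9a3* held 5.95 ± 1.43% in iCreb5 libraries and 10.7 ± 1.38% in tdTomato libraries. In the same order, *Col9a1* held 1.84 ± 0.324% and 4.12 ± 0.642%, and *Col9a2* held 2.55 ± 0.427% and 4.40 ± 0.677%. The groups did not overlap for any of these collagen IX chains. They overlapped for the other FACIT genes, the largest being *Col16a1* at 0.482% in iCreb5 libraries and 0.590% in tdTomato libraries. Shares sum to a whole, so a lower share of one class raises the others.

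**Figure D3:**
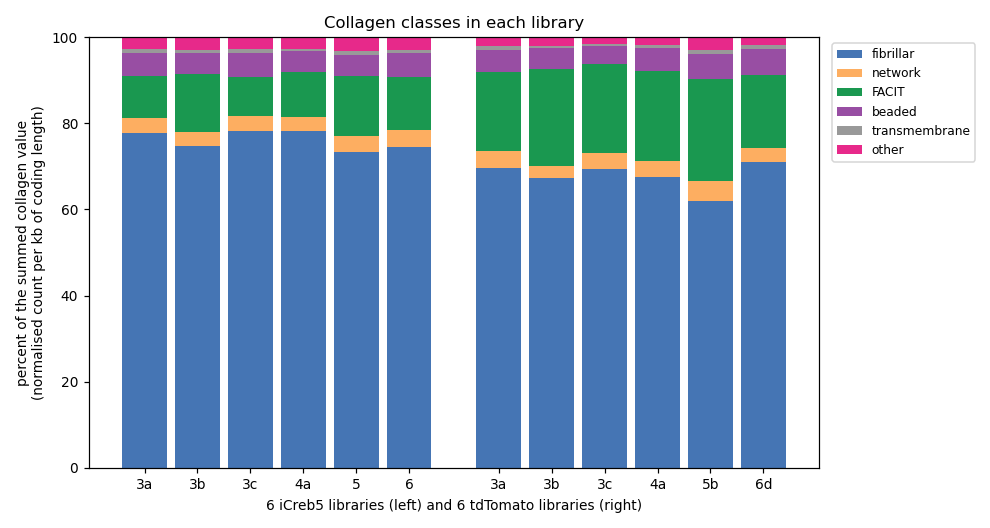
Share of each collagen class, in percent of the summed normalised count per kb of coding length, in each of 6 iCreb5 and 6 tdTomato libraries. The FACIT band, mostly chains of collagen IX, is narrower in every iCreb5 library, averaging 11.5%, than in every tdTomato library, averaging 20.5%.

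Chains that assemble together were compared as log2 ratios within each library, and the groups overlapped for all 9 pairs. *Col4a1/Col4a2* was 0.40 ± 0.19 in iCreb5 libraries and 0.42 ± 0.06 in tdTomato libraries (SD, n = 6 each). *Col6a1/Col6a2* was 0.70 ± 0.20 in iCreb5 libraries and 0.70 ± 0.17 in tdTomato libraries, and *Col11a1/Col11a2* was 0.89 ± 0.35 in iCreb5 libraries and 0.97 ± 0.61 in tdTomato libraries. *Col9a3/Col9a2* was 1.19 ± 0.21 in iCreb5 libraries and 1.27 ± 0.18 in tdTomato libraries. For these 4 pairs the group means differed by less than the SD within either group. Of the 9 pairs, the widest differences between group means were in *Col8a1/Col8a2*, at -1.71 ± 0.29 in iCreb5 libraries and -2.28 ± 0.41 in tdTomato libraries, and in *Col9a1/Col9a2*, at -0.05 ± 0.13 in iCreb5 libraries and 0.32 ± 0.25 in tdTomato libraries. *Col1a1/Col1a2*, the pair of collagen I, was 0.81 ± 0.49 in iCreb5 libraries and 0.48 ± 0.58 in tdTomato libraries and had the widest spread within iCreb5 libraries of the 9 pairs.

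**Figure D4:**
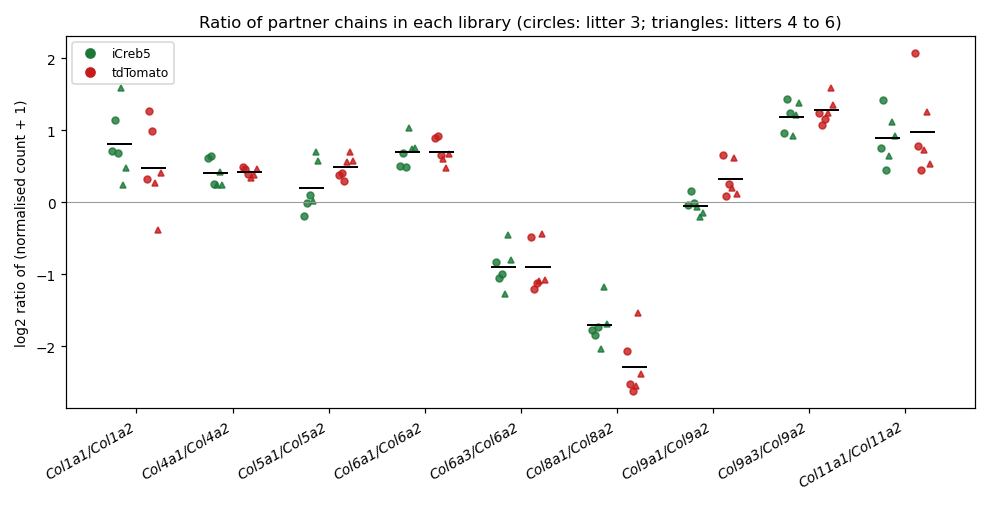
Log2 ratio of the normalised counts (+ 1) of 9 pairs of partner chains in each iCreb5 (left of each pair) and tdTomato library, with the group mean as a line. The groups overlap in every pair, and the means of *Col6a1/Col6a2* are 0.70 in both.

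Litter 3 supplied 3 libraries per group and litters 4 to 6 the other 3, and since the batch labels follow the litters, the effects of litter and of batch cannot be told apart. In litter 3 alone, 8 collagen genes fell, against 1.75% of all tested genes. In litters 4 to 6, with litter as a term, 17 fell, against 2.2% of all tested genes. The 7 in both sets were *Col2a1*, *Col9a1*, *Col9a2*, *Col9a3*, *Col11a1*, *Col15a1* and *Col27a1*, which is 87.5% of the calls of litter 3 and 41.2% of those of litters 4 to 6. No collagen gene rose in either set by limma, with 3 higher at an unadjusted p under 0.05 in litter 3 and 0 in litters 4 to 6. With litter as a block over all 12 libraries 12 collagen genes fell, against 4.35%, and with litter 3 averaged to 1 value per group 14 fell, against 2.33%. The genes that fell in litters 4 to 6 without a call in all libraries were *Col6a1*, *Col6a2*, *Col6a3*, *Col7a1*, *Col8a2*, *Col14a1* and *Col23a1*. *Col7a1* had a log2 change of 0.12 in litter 3 and -1.25 in litters 4 to 6 (adjusted p = 0.00906). *Col25a1* had 1.09 in litter 3 and 0.03 in litters 4 to 6. *Col11a1* had -1.60 in litter 3 and -1.52 in litters 4 to 6. The test of the difference between the litter sets called 0 of 40 collagen genes (limma, 0.0% of all tested genes), with 8 at an unadjusted p under 0.05, and the lowest adjusted p was 0.501.

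**Figure D5:**
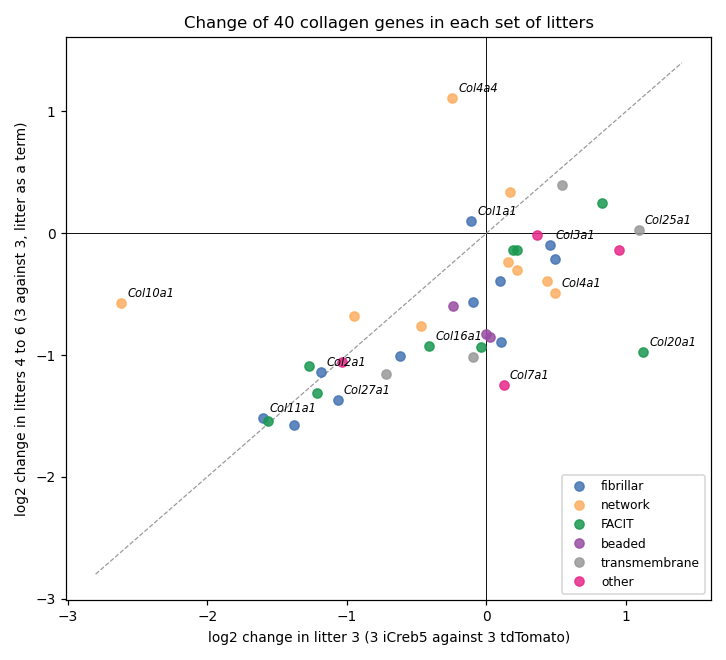
Log2 change, iCreb5 minus tdTomato, of the 40 collagen genes in litter 3 (horizontal axis) and in litters 4 to 6 with litter as a term (vertical axis), 3 libraries per group each; the dashed line marks equal change. The genes called in both sets lie at the lower left near the line, while *Col10a1*, at -2.62 and -0.57, and *Col7a1* lie away from it.

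Genes that act on collagen chains were followed from a list of 51, of which 47 passed the filter on low values. Of these 7 fell and 0 rose, against 2.85% of all tested genes that fell and 3.87% that rose, with 16 lower and 3 higher at an unadjusted p under 0.05; edgeR and DESeq2 also called 0 higher. With litter as a block 12 fell, against 4.35% of all tested genes, and 7 fell, against 2.33%, when the litter 3 libraries of each group were averaged first. Among the hydroxylases and glycosyltransferases that modify chains in the endoplasmic reticulum, 3 of 15 fell. *P4ha2*, a catalytic subunit of prolyl 4-hydroxylase, averaged 4391 ± 604 in iCreb5 libraries and 6777 ± 1394 in tdTomato libraries (SD, n = 6 each; log2 change -0.61 ± 0.14 (SE), adjusted p = 0.0157). *P4ha1*, its more abundant relative, averaged 6432 ± 757 in iCreb5 libraries and 9071 ± 1735 in tdTomato libraries (adjusted p = 0.0460), and *Crtap*, the cartilage-associated protein of the prolyl 3-hydroxylase complex, averaged 6085 ± 445 in iCreb5 libraries and 7616 ± 654 in tdTomato libraries (adjusted p = 0.0443). *P4ha1* and *Crtap* each kept their call in 9 of 25 alternative settings. *P4hb*, the shared subunit, averaged 40588 ± 3773 in iCreb5 libraries and 48743 ± 4136 in tdTomato libraries, and *Ppib*, a prolyl isomerase, averaged 11185 ± 1626 in iCreb5 libraries and 14454 ± 3424 in tdTomato libraries. These 2 did not pass (adjusted p = 0.142 and 0.169), but did with litter as a block (adjusted p = 0.0312 and 0.0210). With litter 3 also averaged, neither passed (adjusted p = 0.174 and 0.0915).

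Of the chaperones and export factors, 2 of 11 fell, against 2.85% of all tested genes. *Fkbp14*, a prolyl isomerase that acts on collagen in the endoplasmic reticulum, averaged 3886 ± 300.3 in iCreb5 libraries and 5380.0 ± 484 in tdTomato libraries (adjusted p = 0.00456), and *Kdelr2*, a receptor that returns chaperones to it, averaged 5779 ± 759 in iCreb5 libraries and 7985 ± 951 in tdTomato libraries (adjusted p = 0.0162). *Serpinh1*, the collagen chaperone HSP47, averaged 127502 ± 25609.7 in iCreb5 libraries and 154442 ± 37703 in tdTomato libraries and did not pass (adjusted p = 0.416). *Pcolce2*, an enhancer of the protease that trims fibrillar procollagens, fell and was 1 of 7 tested genes of its set. It had 417, 704 and 773 in iCreb5 libraries, against 1587, 1727 and 1985 in tdTomato libraries, without overlap, at a log2 change of -1.47 ± 0.15 (SE) and an adjusted p of 1.54e-05. The protease *Bmp1* averaged 8504 ± 1926 in iCreb5 libraries and 6504 ± 1283 in tdTomato libraries (adjusted p = 0.232). Of the 5 cross-linking oxidases, 0 passed in limma (2 were lower at an unadjusted p under 0.05, edgeR called 1 lower, and DESeq2 and the litter block each called 2 lower). *Lox*, the lysyl oxidase, averaged 11120.2 ± 3424 in iCreb5 libraries and 10448 ± 2694 in tdTomato libraries. Of 9 tested receptors, *Itga10*, the integrin chain by which chondrocytes bind collagen II, fell. It had 32.2, 60.6 and 74.0 in iCreb5 libraries, against 77.6, 160.4 and 192 in tdTomato libraries, with a log2 change of -1.25 ± 0.26 (SE) and an adjusted p of 0.00739. *Itgb1*, the partner of all collagen-binding integrins, averaged 16745 ± 3702 in iCreb5 libraries and 16230.4 ± 2549 in tdTomato libraries, and the interval of its log2 change was -0.31 to 0.36. *Tll2*, *Mep1a*, *Mep1b* and *Gp6* did not pass the filter.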

How the data were processed

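Polyadenylated RNA of sorted E14.5 limb cells was sequenced in 12 libraries, 6 per group. The submitters' processing notes name FastQC, STAR, Salmon, DESeq2 and mm10 but neither versions nor roles. The deposited values are a normalised signal for each gene, and the values themselves show gene counts divided by 1 factor per library. Whole reads were recovered from the deposited signal for 100% of values within 1e-06. A table with 8 columns that match no labelled sample was not used. The sources used here do not say how strand entered the counting.

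The 16733 genes that reached 10 in 6 or more of the 12 libraries were tested. The test was limma 3.58.1 in R 4.3.3 on log2(value + 1), two-sided, with a mean-variance trend, without covariates, and adjusted by Benjamini-Hochberg over these genes. The added 1 shrinks changes of weak genes. Folds are the antilog of the log2 change. On simulated counts for the main comparison (16733 genes), 76.5% of genes changed by 1 on the log2 scale and 99.0% of those changed by 2 were recovered. The changed genes were drawn only from those above a minimum mean value, so these rates do not cover the weakest genes. No litter effect was simulated. The litter label pairs the samples. Deviations from the group means correlated at 0.063 on average within a litter and -0.030 between litters, and litter as a replicate block was an alternative. From the recovered reads, edgeR 4.0.16 called 641 genes higher and 471 lower, and DESeq2 1.42.0 called 922 higher and 715 lower. Other alternatives were another pseudocount, other filters, equal library totals, litter subsets and leaving libraries out. Coding lengths and gene positions came from GENCODE M21 (mm10). Promoter windows came from RefSeq (GRCm38.p6), with 31 of the 40 collagen genes matched by symbol. A value of 3 reads, the counting floor, was 1.48 to 8.38.

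The collagen genes, their classes, the genes that act on collagen and the marker lists were chosen with earlier results of these data known. All 40 collagen genes are named. Of the genes that act on collagen, those past the threshold are named, and others only from the 2 most abundant of each set. Genes left out by the filter are named as well.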

Additional observations from a re-analysis of the deposited data

Results flagged for a closer look

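Within the 80 groups of 6 values that the 40 collagen genes give, 2 libraries stood apart from the others of their group by Dixon's test at the 95% level. Chance marks about 1 in 20 such groups. *Col5a3* was 243 in iCreb5 3c, while the other 5 iCreb5 libraries ran from 94.2 to 129.9. *Col13a1* was 223 in iCreb5 5, while the other 5 iCreb5 libraries ran from 334 to 382. Both genes were not past the threshold in all 12 libraries.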

How the results depend on the processing

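Against 648 genes higher and 477 lower, litter 3 alone gave 395 higher and 292 lower, litters 4 to 6 gave 320 higher, and litter as a replicate block gave 728 lower. Leaving out single libraries gave 484 to 705 higher and 369 to 511 lower. Against 10 collagen genes lower, litters 4 to 6 gave 17, litter as a replicate block 12, and single libraries left out 9 to 11, and 0 were higher in every setting listed. Of the genes that act on collagen (0 higher, 7 lower), 2 were higher without iCreb5 5 and 6 and 0 to 1 without single libraries, while 12 were lower with litter as a replicate block, 4 in litters 4 to 6 and 5 to 10 without single libraries. Without division by coding length, the FACIT share differed by -5.48 percentage points in place of -8.95 and that of *Col7a1*, *Col15a1*, *Col18a1* and *Col26a1* together by 0.270 in place of 0.867. The log2 changes of some collagen genes that did not pass turned sign, and the cause was not tested. With equal library totals they were 0.065 for *Col1a1*, 0.023 for *Col4a5* and 0.027 for *Col8a1*. With litter 3 averaged and litter as a replicate block they were 0.028 for *Col1a1*, -0.027 for *Col5a2*, -0.24 for *Col4a1*, -0.18 for *Col4a2*, -0.051 for *Col12a1*, -0.52 for *Col20a1* and -0.0028 for *Col22a1*. In litters 4 to 6 with litter as a term they were 0.10 for *Col1a1*, -0.098 for *Col3a1*, -0.21 for *Col5a2*, -0.49 for *Col4a1*, -0.40 for *Col4a2*, -0.14 for *Col12a1*, -0.98 for *Col20a1*, -0.13 for *Col22a1*, -0.14 for *Col18a1* and -0.013 for *Col26a1*. Without iCreb5 5 and 6 they were 0.24 for *Col1a1*, 0.080 for *Col4a5*, 0.039 for *Col8a1*, -0.063 for *Col12a1* and -0.12 for *Col22a1*. In litter 3 alone they were 0.098 for *Col5a1*, 0.11 for *Col5a3*, -0.25 for *Col4a4*, 0.22 for *Col4a5*, 0.15 for *Col8a1*, 0.028 for *Col6a2*, 0.00020 for *Col6a3* and 0.12 for *Col7a1*. Without tdTomato 3a and 5b they were -0.16 for *Col4a1*, -0.15 for *Col4a2*, 0.039 for *Col4a5*, 0.0030 for *Col8a1* and -0.34 for *Col22a1*. In edgeR they were 0.040 for *Col4a5*. In DESeq2 they were 0.034 for *Col4a5*. Without single libraries the sign also turned, with ranges of -0.048 to 0.12 for *Col12a1*, -0.24 to 0.16 for *Col1a1*, -0.20 to 0.50 for *Col20a1*, -0.21 to 0.33 for *Col22a1*, -0.14 to 0.12 for *Col4a1*, -0.15 to 0.14 for *Col4a2*, -0.090 to 0.53 for *Col4a3*, -0.19 to 0.057 for *Col4a5* and -0.14 to 0.035 for *Col8a1*. In the shallowest library 3 reads were a value of 8.38, which limits what can be said of *Col4a3*, *Col4a4*, *Col4a6* and *Col20a1*.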

Other observations

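Several collagen genes lie near one another on GENCODE M21, and where 1 gene of such a pair fell the other did not pass. *Col9a1*, which fell, and *Col19a1*, which did not pass, lie tail to tail on chromosome 1 with 9205 bases between them. *Col19a1* had a log2 change of 0.54 ± 0.34 (SE), against -1.55 ± 0.15 for *Col9a1*. *Col9a3*, which fell, and *Col20a1*, which did not pass, lie in the same direction on chromosome 2 with 364345 bases between them. Genes other than collagens between them were not looked at. A difference in *Col20a1* was hardly detectable at this depth, so its lack of a call says little about the pair. The pairs *Col3a1* and *Col5a2*, *Col4a3* and *Col4a4*, *Col4a5* and *Col4a6*, and *Col6a1* and *Col6a2* did not pass in either gene.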
